A study of Mus musculus with 18 samples.

Results

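The mRNAs described here encode the nuclear-encoded subunits of the mitochondrial respiratory chain and of the ATP synthase, followed through polysome fractions of wild-type and Ddx6 KO mouse embryonic stem cells. Members were chosen by symbol alone: protein-coding genes of the Nduf A, B, C, S and V series, Sdha to Sdhd, and genes whose symbols begin with Uqcr, with Cox4 to Cox8 and a letter from a to c, or with Atp5. A member also had to reach 3 CPM, counts scaled to the size of the library, in 3 or more of the 18 libraries. Of 82 genes with such a symbol, 78 reached it, out of 12705 genes kept in all. They comprised 37 genes of complex I, 4 of complex II, 8 of complex III, 12 of complex IV and 17 of complex V, the ATP synthase. The 4 left out were Cox6a2, Cox7b2, Cox8b and Cox8c, forms known from muscle or testis, whose highest values in any library ran from 0.646 to 2.33 CPM. The symbols are not a perfect guide: they miss Cox4i1 and Cyc1, which are given separately, they take in Atp5s, which is not a subunit of the enzyme, and they place Ndufa4, now assigned to complex IV, in complex I.

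Cells were V6.5 embryonic stem cells, either wild type (WT) or with Ddx6 disrupted by CRISPR-Cas9, grown in serum with LIF and the 2 inhibitors known as 2i. Ddx6 encodes an RNA helicase that acts in translational repression and mRNA decay, and the comparison asked how its loss changed where mRNAs sit in polysomes. The KO lines were clones: gradient 1 was run on the first, gradients 2 and 3 on the second, so that a difference between clones and a difference between gradients could not be told apart. Cells received 100 ug/ml cycloheximide, which holds ribosomes on mRNAs, before lysis, and 3 sucrose gradients per genotype were each cut into monosome (1 ribosome), low polysome (2 to 4 ribosomes) and high polysome (4 or more) fractions, which gave 6 groups of 3 libraries. Apart from the pair of clones, no source used here says that gradients came from separate cultures, so the p-values measure the spread between these gradients, which may be technical.

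The respiratory chain passes electrons from NADH and succinate to oxygen through complexes I to IV and pumps protons across the inner mitochondrial membrane, and the ATP synthase uses the resulting gradient to make ATP. Most of its subunits are made in the cytosol from nuclear genes and imported, and join a few hydrophobic subunits that mitochondria make themselves. Many of the nuclear-encoded subunits are very small proteins. A short coding sequence has room for few ribosomes, so that a well translated short mRNA can still sediment with low polysomes or monosomes.

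The libraries held 2543617 to 11474550 gene counts, and members took 1.94% to 5.42% of them. Ddx6 itself, ENSMUSG00000032097.10, chromosome 9 from 44604892 to 44640731 on GRCm38, averaged 153, 189 and 190.2 CPM in WT monosome, low and high polysome libraries and 33.9, 40.4 and 26.0 CPM in the KO. The fall was called in each fraction by limma, at -2.35, -2.62 and -3.32 (log2 KO over WT). Signal was left over mainly in the first clone, at 55.3 to 82.7 CPM against 9.68 to 26.7 CPM in the second. All 9 embryonic stem cell markers passed the filter, with summed levels of 2914 to 6474 CPM in WT and 3024 to 4807 CPM in KO libraries. Summed levels moved with genotype for 2 of the other lists. The 4 epiblast markers, of which 3 passed the filter and Fgf5 was at 0 throughout, gave 103 to 149 CPM in WT and 32.7 to 80.4 CPM in KO libraries. The 3 trophoblast markers, of which 1 passed the filter, gave 0.30 to 1.99 and 6.80 to 18.3 CPM. In KO libraries Krt7 was at 4.62 to 16.3 CPM, Cdx2 at 1.13 to 5.25 CPM and Elf5 at 0 to 0.26 CPM. In WT libraries they were at 0.10 to 1.99, 0 to 0.28 and 0 to 0.19 CPM. The part of these lists in the results below was not tested. A pair of low polysome libraries stood apart, WT gradient 3 and KO gradient 2. They were more than 2-fold below both libraries of the same group for 8 and 7 members. Each count below was also made without that pair. The KO high polysome library of gradient 3 was likewise below for 2 members, Cox7c and Sdhd. Deviations from group means correlated at 0.514 within the pair, and at 0.373 and 0.468 between the pair and that library. The high polysome to monosome ratio uses that library, and the pair only for the shared spread. Counts without KO gradient 3 are given below.

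The members shared short coding sequences and short untranslated regions. The median annotated coding sequence of the 78 members was 409.5 nt, from 156 nt for Atp5e to 2181 nt for Ndufs1, against a median of 1353 nt over 11773 protein-coding genes. There were 49 members (62.8%) with at most 500 nt, against 9.11% of those genes. Untranslated regions had medians of 94 nt upstream and 162 nt downstream of the coding sequence, against 164 nt and 934 nt.

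Some members also shared a sequence at the start of the gene. RefSeq promoters (GRCm38.p6, 250 bases before to 50 after the annotated start) were matched for 64 of the 78 members. The core of TISU, a translation initiator element that spans the start codon of mRNAs with very short leaders, was searched by its 10 letters, shown in capitals below. On the gene's own strand it stood in the promoters of 5 members (7.81%), against 1.91% of 9320 protein-coding genes kept here and 0.615% of all 32851 promoters. For each motif, members and protein-coding genes were counted by gene, with a match in any promoter of the gene, and the last share by single promoter. On either strand it stood in 5 member promoters, 2.48% and 0.852%. The 5 windows are shown because they place the element at the start codon of several complex I mRNAs, with the core in capitals and the flanks in lower case, each written 5′ to 3′ on the gene's strand.
Ndufs4 (chr13:114388045-114388074, minus strand): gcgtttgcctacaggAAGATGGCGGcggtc
Ndufa9 (chr6:126849096-126849125, minus strand): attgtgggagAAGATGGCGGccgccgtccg
Ndufs6 (chr13:73328433-73328462, minus strand): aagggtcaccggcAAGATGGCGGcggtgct
Ndufs7 (chr10:80249463-80249492, plus strand): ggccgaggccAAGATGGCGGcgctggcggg
Atp5j (chr16:84835045-84835074, minus strand): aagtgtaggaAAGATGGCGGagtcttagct
In the 4 complex I genes the ATG inside the core was an annotated start codon, with the core 25 to 36 bases after the start of the gene. In Atp5j it lay 88 bases before the annotated start and was not one. The palindromic motif of NRF1, a transcription factor of many mitochondrial genes, was in 5 members (7.81%), against 2.39% of protein-coding genes and 0.971% of all promoters. It stood in the promoters of Atp5g2, Atp5k, Cox6a1, Ndufa11 and Uqcrc1. It is shown in capitals in a pair of them, picked because their mRNAs were higher in the KO monosome and lower in both KO polysome fractions. The other three differed: Uqcrc1 was higher in both polysome fractions, Atp5g2 was lower in the monosome alone, and Atp5k was lower in both polysome fractions with no call in the monosome.
Cox6a1 (chr5:115349101-115349130, minus strand): caggaacgggGCGCATGCGCgctctcgctc
Ndufa11 (chr17:56717692-56717721, plus strand): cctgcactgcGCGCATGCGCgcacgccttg
The third motif, CCGGAAG, is bound by ETS factors such as GABPA and was in 16 member promoters on either strand (25.0%, against 20.7% and 8.86%). These are matches of letters only.

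In WT cells the members were spread over the whole range of polysome positions. Translation level is given here as the log2 ratio of high polysome to monosome CPM. By limma, 27 members were higher in the high polysome and 33 were higher in the monosome at an adjusted p under 0.05, where 28.9% and 32.2% of all genes tested were called. The median over members was -0.18, and -0.02 over all genes. In bulk libraries fewer cells with an mRNA and less of it per cell cannot be told apart, and every level is relative to the other mRNAs of the same library.

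By role, all 7 core subunits of complex I, the conserved subunits of its catalytic arm, were higher in the WT high polysome. Of the 30 genes counted as supernumerary subunits, which surround that core, 5 were higher there and 13 were higher in the monosome. These 30 were taken by symbol and include Ndufa4, now assigned to complex IV, and its paralogue Ndufa4l2. Complex II had 3 of 4 higher in the high polysome. Complex III was divided, with 3 higher in the high polysome and 4 in the monosome. Complex IV was almost uniform, with 11 of 12 higher in the monosome and Cox5a the exception, at 0.39 (SE 0.15, limma adjusted p = 0.0320). Complex V had 8 of 17 higher in the high polysome, and the largest value among its catalytic subunits was that of the beta subunit Atp5b, at 1.77 (SE 0.14, limma adjusted p = 7.3e-10).

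This order followed coding length. Across the 78 members the Spearman correlation of coding length with the WT translation level was 0.77, and 0.04 across all protein-coding genes, both across genes that share the same libraries and given without a test. In KO cells the values were 0.86 and 0.37. An exception was Ndufv3, annotated at 1404 nt and named after its values were seen. Its level was -1.94 in WT and -2.15 in KO cells. Coding length was that of a single annotated transcript per gene, and counts per gene do not separate isoforms.

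In KO cells 52 of the 78 members were higher in the monosome and 15 in the high polysome, where 33.6% and 35.0% of all genes were called, with a median of -1.08 against 0.03 over all genes. Taken gradient by gradient, the median member ratio was -0.075, -0.17 and -0.28 in WT gradients 1 to 3 (mean -0.18 ± 0.10, SD, n = 3) and -0.93, -0.86 and -1.36 in KO gradients (mean -1.05 ± 0.27, SD, n = 3). The KO gradients lay below all WT gradients, and KO gradient 3 was the lowest. Of the 27 members that were higher in the WT high polysome, 15 were also higher there in the KO, 7 were no longer called and 5 were higher in the KO monosome. Those 5 were Atp5g3, Atp5o, Cox5a, Ndufc2 and Ndufs4.

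The difference between genotypes was then tested itself, as the interaction of genotype with fraction. By limma, 34 of 78 members had a lower translation level in KO than in WT cells and 3 had a higher one, where 7.09% of all genes tested were lower and 10.7% higher. The median over members was -0.55, and 0.02 over all genes. For 46 members all 3 KO ratios lay below all 3 WT ratios, as they did for 17.8% of all genes, and for 8 members they lay above, as for 21.2%. Complex I contributed 20 of the 34 lower calls, 2 of its 7 core and 18 of its 30 supernumerary subunits. Complex V contributed 7, complex IV 5, and complexes II and III 1 each. The medians were -0.57, -0.81, -0.32, -0.62 and -0.60 for complexes I to V. The 3 higher calls were Sdha, Atp5a1 and Cox7a2l.

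Coding length and single gradients bear on these counts. With a smooth trend on coding length over all genes removed, 3 members were lower (Ndufc2, Ndufs4 and Uqcrb) and 3 higher, and the median was -0.12. The 3 higher members were not the same ones as before: Cox7a2l was still called, and Sdha and Atp5a1 were not. Without KO gradient 3, 15 members were lower, and without WT gradient 1 or WT gradient 2, 20 were lower in each case and none was higher. Without KO gradient 1, 5 were higher.

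**Figure D1:**
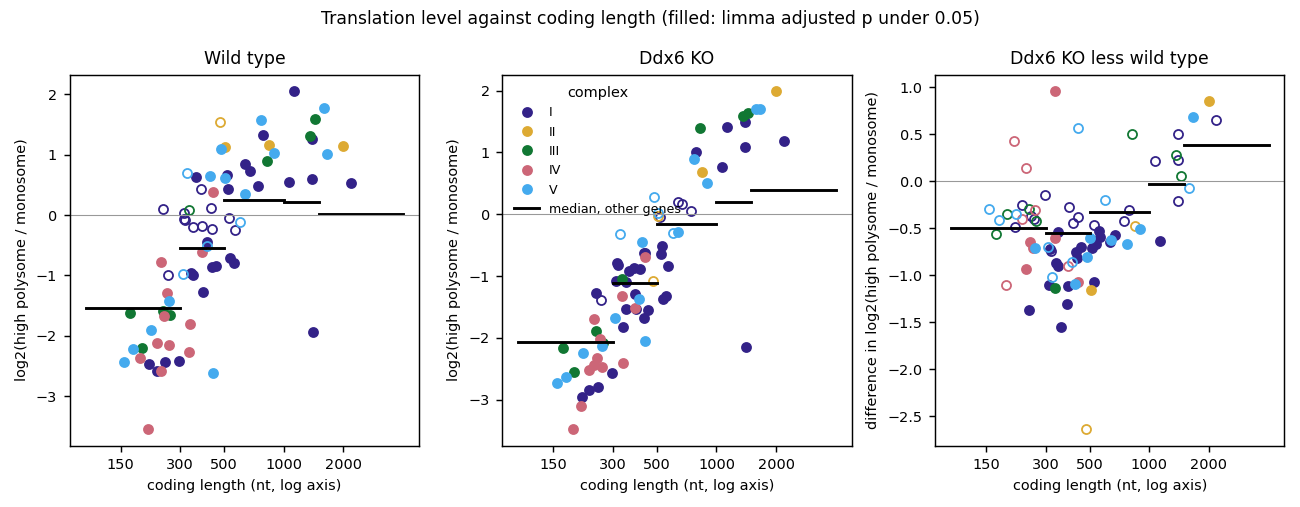
Annotated coding length (nt, log scale) against log2 high polysome over monosome in WT cells, the same in KO cells, and the KO effect on that ratio, with each member a point coloured by complex and filled where limma called it. Black bars give the median of other protein-coding genes in the same bin of length, and among members the shorter sequences sit lower in both genotypes (Spearman rho 0.77 and 0.86) with a weaker relation for the KO effect (0.23).

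Members were also set beside other mRNAs of like size. Members of at most 300 nt had a median KO effect of -0.40, and 232 other genes of that size -0.50, with 5 of 22 members lower (22.7%) against 22.8%. From 300 to 500 nt the medians were -0.82 for 27 members and -0.55 for 791 other genes, and 16 of those members were lower (59.3%) where 26.5% of the other genes were. From 500 to 1000 nt they were -0.58 for 18 members and -0.33 for 2790 other genes, with 12 members lower (66.7%) against 15.3%. Above 1000 nt the medians of members were positive, at 0.21 for 7 members of 1000 to 1500 nt and 0.67 for 4 longer ones. Other genes of those sizes had -0.03 and 0.39. Of the 7, 0 were called higher and 1 lower (14.3%), where 5.65% and 3.76% of the other genes were. Of the 4, 2 were higher and 0 lower, where 21.1% and 1.22% of the other genes were. Across all protein-coding genes the KO effect correlated with coding length at 0.54, and across members at 0.23, again across genes and without a test.

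Complex I, which oxidises NADH and is the entry point of most electrons, is the largest of the complexes. Ndufc2, a subunit of its membrane arm (ENSMUSG00000030647.8, chromosome 7 from 97400003 to 97407802, 360 nt of coding sequence), measured 355, 371 and 335 CPM in WT monosomes of gradients 1 to 3 and 547, 669 and 644 CPM in KO monosomes. Its high polysome values were 543, 589 and 509 CPM in WT and 428, 349 and 231 CPM in KO gradients. The groups did not overlap in either fraction, and they differed in opposite directions: the monosome rose by 0.81 and the high polysome fell by 0.75 on the log2 scale. The translation level was 0.61, 0.67 and 0.60 in WT and -0.35, -0.94 and -1.48 in KO gradients, and the interaction was -1.55 (SE 0.26, limma adjusted p = 0.000773). Ndufs4, a small subunit of the NADH-oxidising arm that is mutated in Leigh syndrome and carries the TISU core, showed the same shape. It measured 205, 237 and 223 CPM in WT and 294, 345 and 351 CPM in KO monosomes, and 296, 323 and 282 CPM in WT and 226, 221 and 188 CPM in KO high polysomes. Its translation level was 0.53, 0.45 and 0.34 in WT and -0.38, -0.64 and -0.90 in KO gradients, with an interaction of -1.08 (SE 0.16, limma adjusted p = 0.000335). No KO ratio of either gene reached a WT ratio.

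Besides Ndufc2, the lowest values in complex I were those of Ndufa4 at -1.37 (SE 0.47, limma adjusted p = 0.0478), Ndufb6 at -1.31 (SE 0.37, limma adjusted p = 0.0193), Ndufb4 at -1.12 (SE 0.33, limma adjusted p = 0.0251) and Ndufb3 at -1.11 (SE 0.33, limma adjusted p = 0.0262). Ndufb3, Ndufb4 and Ndufb6 belong to the membrane arm, whereas Ndufa4 is counted in complex I by its symbol alone. Ndufa4 and Ndufb6 were among the members for which the WT low polysome library of gradient 3 stood apart, and Ndufa4 was no longer called by DESeq2 or with no filter on low counts. A pair of large core subunits lay at the other end, neither called without a block: Ndufs1, an iron-sulfur subunit and the longest member, was at 0.65 (SE 0.26, limma adjusted p = 0.0816) and was called with the gradient as a block at 0.65, and Ndufv1, which holds the flavin, at 0.22 (SE 0.26, limma adjusted p = 0.585). Ndufs1 was higher in the KO high polysome, at 0.84 (SE 0.16, limma adjusted p = 0.000248). Ndufv1 was higher in the KO low polysome, at 0.88 (SE 0.18, limma adjusted p = 0.000450).

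Ndufa9, a complex I subunit near the quinone site that carries the TISU core, was the sole member higher in the KO in all 3 fractions. Its monosome levels were 48.6, 48.6 and 59.5 CPM in WT and 116, 143 and 132 CPM in KO libraries, and its low polysome levels 84.8, 87.3 and 94.4 CPM in WT and 217, 290.0 and 269.9 CPM in KO. In the high polysome it measured 220.1, 219 and 212 CPM in WT and 380.0, 305 and 357 CPM in KO. The rises were 1.31, 1.53 and 0.67 (log2), and with the smallest in the high polysome its translation level was lower in the KO, at -0.63 (SE 0.19, limma adjusted p = 0.0276). The other complex I mRNAs with that core, Ndufs6 and Ndufs7, which encode iron-sulfur arm subunits, were lower too, at -0.54 (SE 0.17, limma adjusted p = 0.0381) and -0.57 (SE 0.18, limma adjusted p = 0.0321). The Ndufs6 call was lost whichever of the 6 gradients was left out. The Ndufs7 call was lost without WT gradient 1 or 3 or KO gradient 1 or 3, and that of Ndufa9 without WT gradient 1 or 2 or KO gradient 2 or 3. Among the 5 members with the TISU core the median KO effect was -0.63 and 4 were lower, and among the 59 other members with a promoter it was -0.59 and 26 were lower.

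Complex II oxidises succinate and is the sole complex here with no mitochondrially encoded subunit, and its 4 mRNAs did not move as one. Sdha, the flavoprotein (ENSMUSG00000021577.14, chromosome 13 from 74322254 to 74350280), measured 84.8, 96.4 and 85.8 CPM in WT and 78.9, 102 and 82.7 CPM in KO monosomes. In the high polysome it measured 208, 183 and 197 CPM in WT and 310.0, 383 and 350.2 CPM in KO libraries. The monosome groups overlapped and the high polysome groups did not, and the translation level was higher in the KO, at 0.85 (SE 0.26, limma adjusted p = 0.0292). That call was lost without WT gradient 1, 2 or 3, without KO gradient 3, with no filter on low counts, at equal depth and with the coding length trend taken out. Sdhb, the iron-sulfur protein, was at -0.47 (SE 0.18, limma adjusted p = 0.0735) and was lower in the KO high polysome alone, at -0.41 (SE 0.12, limma adjusted p = 0.0103). Sdhc and Sdhd anchor the complex in the membrane. Sdhc had a lower translation level, at -1.15 (SE 0.35, limma adjusted p = 0.0288), with ratios of 0.90, 1.42 and 1.05 in WT and 0.21, 0.013 and -0.29 in KO gradients.

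Sdhd had the lowest estimate of any member, -2.63 (SE 0.97, limma adjusted p = 0.0645), which was not called without a block and was called with the gradient as a block, at -2.65. Its high polysome values were 225, 212 and 187 CPM in WT and 146, 117 and 36.6 CPM in KO gradients, and its low polysome values 199, 119.6 and 18.8 CPM in WT and 219, 25.6 and 122 CPM in KO. Gradient 3 was far below the other two in the WT low polysome and the KO high polysome, as was gradient 2 in the KO low polysome. Cox7c, another short mRNA, stood apart in the same 3 libraries and was at -1.10 (SE 1.07, limma adjusted p = 0.497).

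Complex III passes electrons from ubiquinol to cytochrome c. Uqcrb, a small subunit at its quinone site (ENSMUSG00000021520.4, chromosome 13 from 66900617 to 66905378), had the lowest p of all members. Its monosome levels were 503, 557 and 538 CPM in WT and 826, 851 and 863 CPM in KO libraries, and its high polysome levels 621, 539 and 541 CPM in WT and 402, 415 and 408 CPM in KO. Again the KO was above the WT in the monosome and below it in the high polysome, with no overlap. The ratios were 0.30, -0.049 and 0.0096 in WT and -1.04, -1.03 and -1.08 in KO gradients, with an interaction of -1.14 (SE 0.15, limma adjusted p = 9.87e-05). It was the sole call in complex III. Uqcr11 and Uqcrh, also small, were at -0.56 (SE 0.24, limma adjusted p = 0.104) and -0.42 (SE 0.21, limma adjusted p = 0.162). The large core proteins Uqcrc1 and Uqcrc2 were at 0.05 (SE 0.29, limma adjusted p = 0.926) and 0.28 (SE 0.22, limma adjusted p = 0.40), and both were higher in the KO low polysome, by 1.07 and 1.08, and in the KO high polysome, by 0.54 and 0.43. Uqcrfs1, the Rieske iron-sulfur protein, was at 0.50 (SE 0.31, limma adjusted p = 0.273) and was lower in the KO monosome alone, at -0.75 (SE 0.22, limma adjusted p = 0.0112).

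Complex IV reduces oxygen. Cox5a, one of its larger nuclear-encoded subunits (ENSMUSG00000000088.7, chromosome 9 from 57521274 to 57532426), measured 1307, 1547 and 1555 CPM in WT and 1650.0, 1925 and 2093 CPM in KO monosomes, and 1933, 2013 and 1821 CPM in WT and 1274, 1291 and 972 CPM in KO high polysomes. The ratios crossed zero, from 0.56, 0.38 and 0.23 in WT to -0.37, -0.58 and -1.11 in KO gradients, and the interaction was -1.07 (SE 0.21, limma adjusted p = 0.00273). Cox7b was lower too, at -0.93 (SE 0.28, limma adjusted p = 0.0261). Cox7a2l, a relative of the Cox7a subunits that joins complex IV to complex III in supercomplexes, went the other way. It measured 131, 153 and 139 CPM in WT and 72.1, 52.8 and 58.0 CPM in KO monosomes, and 28.2, 25.4 and 34.7 CPM in WT and 24.3, 26.6 and 22.1 CPM in KO high polysomes. Its ratio was higher in the KO, at 0.95 (SE 0.25, limma adjusted p = 0.0120), with a fall of 1.23 in the monosome and -0.27 (limma adjusted p = 0.236) in the high polysome. The call was lost without WT gradient 1, without WT gradient 2 and at equal depth. Cox8a was at 0.43 (SE 0.18, limma adjusted p = 0.108) and was lower in the KO monosome and low polysome, at -0.73 and -0.81.

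In complex V the c-ring is built from 1 protein encoded by Atp5g1, Atp5g2 and Atp5g3, which differ in the import sequence that is removed. Atp5g3 (ENSMUSG00000018770.9, chromosome 2 from 73908447 to 73911326) measured 1713, 2161 and 2058 CPM in WT and 2389.6, 2878 and 2967 CPM in KO monosomes, and 3024, 3387 and 2879.9 CPM in WT and 2091, 2097 and 1853 CPM in KO high polysomes. Its ratio fell from 0.82, 0.65 and 0.48 in WT to -0.19, -0.46 and -0.68 in KO gradients, at -1.09 (SE 0.20, limma adjusted p = 0.00177). Atp5g1 was at -0.85 (SE 0.37, limma adjusted p = 0.115) and Atp5g2 at 0.57 (SE 0.58, limma adjusted p = 0.528), neither called. In single fractions Atp5g1 was lower in the KO low and high polysomes, at -1.10 and -0.83, while Atp5g2 was lower in the monosome, at -1.30 (SE 0.32, limma adjusted p = 0.00275). Atp5j, which encodes coupling factor F6, was at -1.01 (SE 0.48, limma adjusted p = 0.145).

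The catalytic head of the ATP synthase is formed by the alpha and beta subunits. Atp5a1, the alpha subunit, measured 707, 635 and 573 CPM in WT and 398, 499 and 449 CPM in KO monosomes, and 305, 341 and 257 CPM in WT and 406, 473 and 520.1 CPM in KO low polysomes. The monosome was lower and the low polysome higher in the KO, with no overlap, at -0.51 and 0.64 (log2). The high polysome did overlap, with 1240.1, 1318 and 1287 CPM in WT and 1445, 1661 and 1263 CPM in KO. The ratio was higher in the KO, at 0.68 (SE 0.19, limma adjusted p = 0.0183), a call lost without WT gradient 1, without WT gradient 2 and with the coding length trend taken out. Atp5b, the beta subunit, was at -0.067 (SE 0.19, limma adjusted p = 0.841) and was higher in the KO low polysome, at 0.62 (SE 0.14, limma adjusted p = 0.000785).

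**Figure D2:**
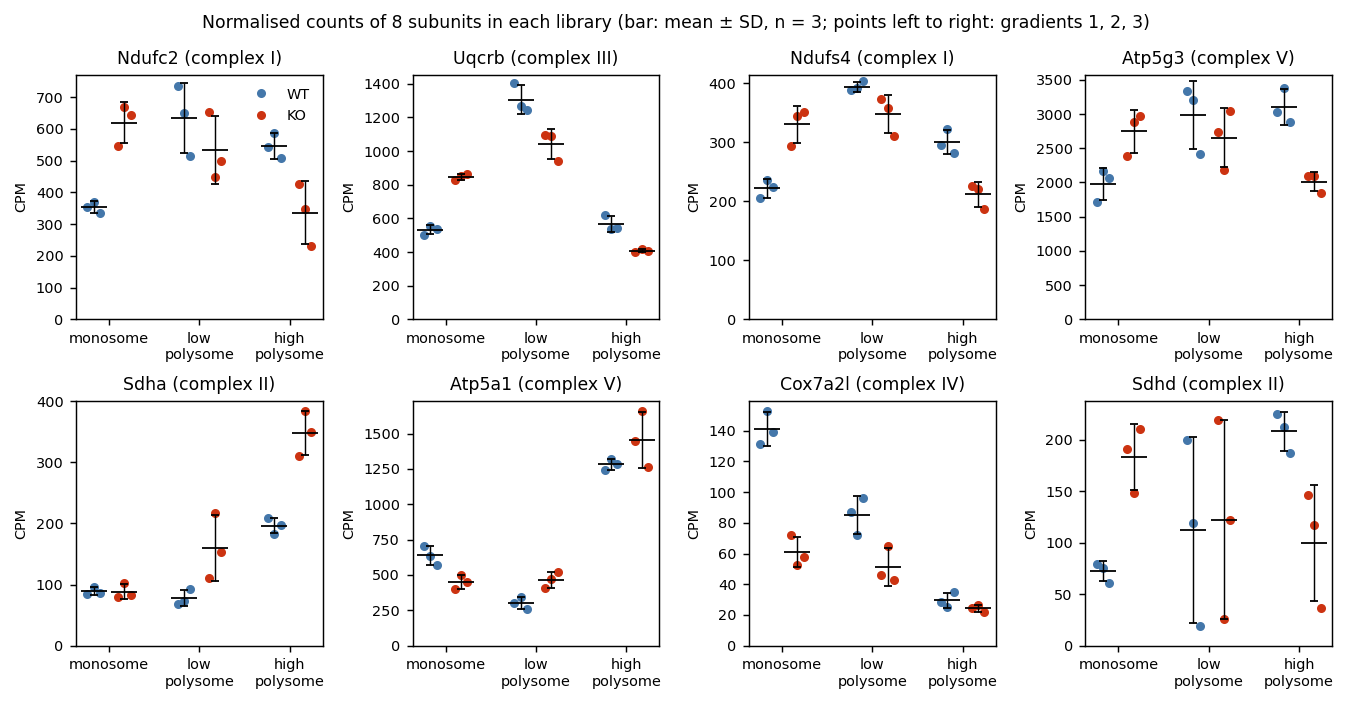
CPM in monosome, low polysome and high polysome libraries of 8 members, with gradients 1 to 3 as points from left to right, bars for the mean ± SD (n = 3), and WT and KO in separate colours. For Ndufc2, Ndufs4, Uqcrb and Atp5g3 the KO points lie above the WT points in the monosome and below them in the high polysome.

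The summed level of the members was also compared by fraction. In WT cells it peaked in the low polysome, at 56844, 51797 and 46211 CPM in gradients 1 to 3, above 37361, 38667 and 40703 CPM in the monosome and 27422, 27046 and 26437 CPM in the high polysome. In KO cells that peak was missing: the low polysome held 37844, 36260.2 and 34873 CPM, the monosome 42124, 39204 and 42159 CPM and the high polysome 22152, 21952 and 20348 CPM. No KO low polysome or high polysome library reached the lowest WT library of its fraction, whereas the monosome ranges overlapped. By complex, the monosome sums of complexes III and IV overlapped, and those of complexes I, II and V were higher in every KO library. Complex I had monosome sums of 11365, 11380 and 12408 CPM in WT and 14284, 13219 and 14148 CPM in KO gradients. In the low polysome complex IV mRNAs had the largest relative difference of the 5 complexes. Their sums there were 17133, 16045 and 12959.6 CPM in WT and 9687, 8166 and 8293 CPM in KO gradients. These sums are ruled by the most abundant mRNAs.

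**Figure D3:**
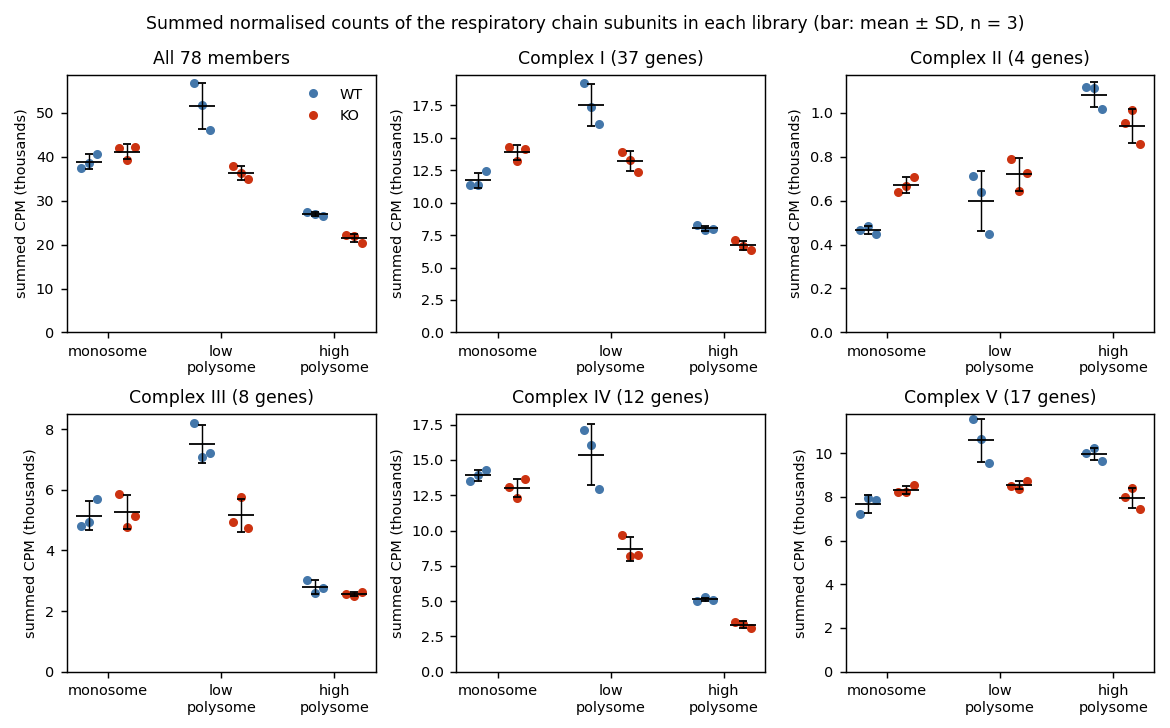
Summed CPM of the kept members of each complex in every library, by fraction, with WT and KO gradients as separate points and bars for the mean ± SD (n = 3). Mean WT sums are highest in the low polysome except for complex II, whose mean is highest in the high polysome, and the KO low and high polysome sums of all members lie below every WT library.

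Gene by gene, 38 members were lower and 9 higher in the KO low polysome by limma, where 24.3% and 23.4% of all genes were called. In the high polysome 37 were lower and 5 higher, against 21.1% and 25.3%. In the monosome 9 were lower and 20 higher, against 20.1% and 18.6%. Without KO gradient 3 the monosome gave 13 higher, and without WT gradient 3 the high polysome gave 3 higher. All 3 KO libraries lay below all WT libraries for 38 members in the low polysome (26.1% of all genes) and for 47 in the high polysome (26.1%), and above them for 27 in the monosome (25.7%). The commonest pattern over fractions, in 20 members (5.44% of all genes), was a lower level in both polysome fractions with no call in the monosome. A further 10 (3.92% of all genes) were higher in the KO monosome with no other call, Atp5d, Ndufa4, Ndufa5, Ndufa8, Ndufb2, Ndufb5, Ndufb6, Ndufb11, Ndufs8 and Sdhc, all but 2 of them in complex I. There were 8 members (0.661% of all genes) higher in the monosome and lower in the high polysome, 4 of which (Cox6a1, Ndufa11, Ndufb9 and Uqcrb) were also lower in the low polysome and 4 of which (Atp5g3, Atp5h, Ndufc2 and Ndufs4) were not called there. Higher levels in both polysome fractions were called for 4 members (15.9% of all genes): Sdha, Uqcrc1, Uqcrc2 and Ndufa9. For 9 members (27.8% of all genes) no fraction gave a call.

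By complex, 11 of 12 complex IV members were lower in the KO low polysome and 8 in the high polysome, and with the 2 low polysome libraries that stood apart left out, 37 members in all were lower in that fraction. Complex I split between fractions, with 14 of 37 higher in the monosome and 16 lower in the low polysome. Complex V had 10 of 17 lower in the high polysome. The KO difference in the low polysome followed coding length across members (Spearman 0.74), where across all protein-coding genes it did not (0.01). Atp5e, the epsilon subunit and the shortest member, was lower in the KO low polysome, at -0.90 (SE 0.14, limma adjusted p = 2.58e-05), and in the high polysome, at -0.51 (SE 0.15, limma adjusted p = 0.00828).

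The low polysome to monosome ratio was tested in the same way, and it shares its monosome libraries with the test above. By limma 28 members had a lower ratio in the KO and 6 a higher one, where 2.39% and 2.31% of all genes were called. The median was -0.64 over members and 0.02 over all genes. Complex I held 15 of the lower calls, complex IV 7, complexes III and V 3 each. The highest ratio among them was that of Atp5a1, at 1.14 (SE 0.19, limma adjusted p = 0.00306). The lower count rested on single gradients, with 2 lower calls without KO gradient 3, 3 without WT gradient 1 and 7 without WT gradient 2. The higher count was 1 without WT gradient 1 or 2 and 0 without KO gradient 3. Once the coding length trend was taken out, 1 lower call was made, and without the 2 low polysome libraries that stood apart, 41.

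**Figure D4:**
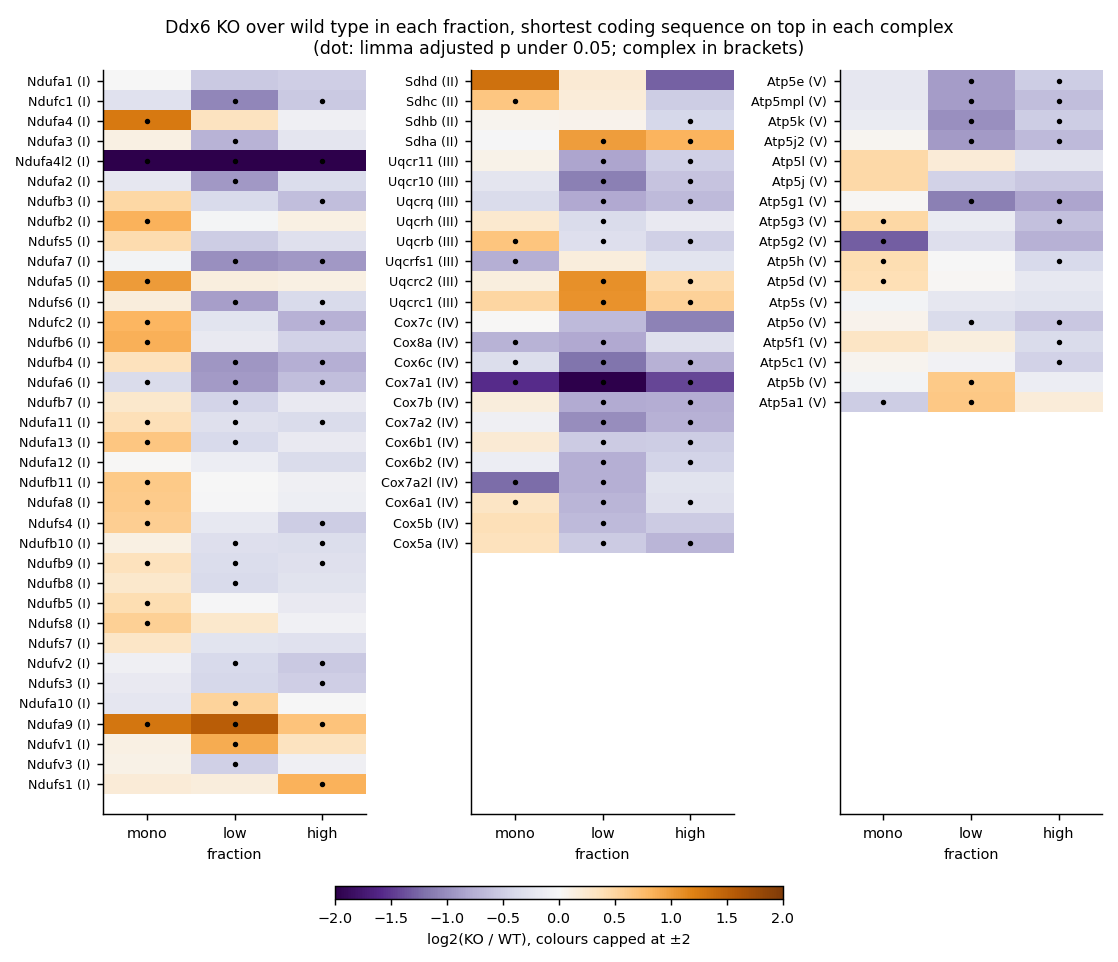
Limma log2 difference, KO over WT, of 77 of the 78 members in monosome, low polysome and high polysome libraries, by complex with the shortest coding sequence on top, with colours capped at ±2 and dots on cells called at an adjusted p under 0.05. Lower values fill most of the complex IV cells in both polysome columns, and complex I has most of the higher monosome cells.

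Isoforms and paralogues of single subunits are given side by side, with no test between them. Ndufa4l2, a paralogue of Ndufa4 known to respond to low oxygen, was lower in the KO in every fraction, at -2.26, -3.32 and -2.65 (log2), the lowest value of any member in each. It was a scarce mRNA whose KO values rest on few counts, with 5.58, 2.79 and 1.66 CPM in WT and 1.15, 0.242 and 0.513 CPM in KO monosomes, and its translation level was at -0.40 (SE 1.14, limma adjusted p = 0.841). Cox7a1, the heart and muscle form of its subunit, was also lower in all 3, at -1.57, -2.21 and -1.44, with 55.6, 59.0 and 57.5 CPM in WT and 23.5, 19.9 and 20.4 CPM in KO high polysomes. The widely expressed form Cox7a2 was lower in the KO low polysome and high polysome, at -1.01 and -0.75, with -0.10 (adjusted p = 0.60, limma) in the monosome, and its translation level was lower, at -0.64 (SE 0.21, limma adjusted p = 0.0361). Cox6a1 and Cox6b1, the widespread forms of theirs, had lower translation levels, at -0.60 (SE 0.17, limma adjusted p = 0.0184) and -0.71 (SE 0.16, limma adjusted p = 0.00455), while Cox6b2, the testis form, was at -0.31 (SE 0.17, limma adjusted p = 0.224). Cox6c, a subunit with no other form here, was lower in all 3 fractions, at -0.34, -1.19 and -0.74. Only uniquely mapped reads had been counted, so levels of subunits with near-identical processed pseudogenes, which are common among short respiratory chain genes, are uncertain.

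Respiratory chain genes that the symbols miss were counted separately. Of 10 such genes kept, 3 had a lower translation level in the KO and 0 a higher one, where 7.09% and 10.7% of all genes did. The median over these 10 genes was -0.70. Cox4i1, the largest nuclear-encoded subunit of complex IV, was at -0.67 (SE 0.18, limma adjusted p = 0.0163) and Cyc1, the cytochrome of complex III, at -0.67 (SE 0.14, limma adjusted p = 0.00393). Cytochrome c itself, Cycs, was at -1.04 (SE 0.38, limma adjusted p = 0.0595) and was called at -1.04 with the gradient as a block. Of 48 assembly factors kept, proteins that build the complexes without staying in them, 8 were lower (16.7%) and 3 higher (6.25%). All genes gave 7.09% lower and 10.7% higher, and the median over the assembly factors was -0.37. The 5 with the lowest adjusted p were Bcs1l, a complex III chaperone, at 1.02 (SE 0.22, limma adjusted p = 0.00429), Coa3, a complex IV factor, at -0.80 (SE 0.20, limma adjusted p = 0.00854), the complex I factors Ndufaf1, at 0.96 (SE 0.27, limma adjusted p = 0.0174), and Ndufaf2, at -0.94 (SE 0.21, limma adjusted p = 0.00562), and the complex V factor Tmem70, at -0.91 (SE 0.21, limma adjusted p = 0.00667). Of 7 mRNAs that the mitochondrial genome encodes, all were lower in the KO monosome, where 20.1% of all genes were. A higher ratio of high polysome to monosome in the KO was called for 1 of the 7 (14.3%, against 10.7% of all genes). All 7 were higher in the monosome in both genotypes, with median ratios of -4.16 in WT and -3.48 in KO cells. Mitochondria make these proteins themselves, so the ratio is not read here as a translation level.

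Calls held to different degrees across gradients. Of the 34 lower translation levels, 11 were called whichever single gradient was left out: Atp5g3, Cox5a, Cox6b1, Ndufa5, Ndufa7, Ndufa11, Ndufa13, Ndufb11, Ndufc2, Ndufs4 and Uqcrb. None of the 3 higher ones was. Of the other 23 lower calls, 3 were lost on leaving out 1 of the 6 gradients, 4 on leaving out either of 2, and 16 on leaving out any of 3 or more, among them Ndufa4, Ndufb3, Ndufb4, Ndufb6, Cox6a1, Cox7a2 and Cox7b.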

How the data were processed

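Polysome fractions were sequenced with QuantSeq, a 3′ end method that gives about 1 read per mRNA regardless of length. According to the study's methods and the submitters' processing notes, the authors trimmed reads with cutadapt (1.14), mapped them to mm10 with STAR (2.5.3a) and kept uniquely mapped reads. The deposited values are whole-number counts per gene from featureCounts (1.5.3), on the sense strand of Gencode M14 genes without rRNA and 92 spike-in sequences. Other columns, gene lengths and coordinates, were not used.

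Gene IDs were matched to Gencode M21 (GRCm38) for symbols and lengths (51274 of 51467, holding 99.99% of counts; 193 did not match). Spike-ins were left out. Genes with 3 CPM or more in 3 libraries (12705) were scaled by TMM and fitted with limma-voom (limma 3.58.1, edgeR 4.0.16, R 4.3.3), all 18 libraries entering as 6 groups, with two-sided tests and Benjamini-Hochberg adjustment over all genes (called under 0.05). Interaction contrasts gave KO effects on translation level. Ratios per gradient used a pseudocount of 0.5 CPM. Alternatives were edgeR's quasi-likelihood test, DESeq2 (1.42.0), other scalings, no filter, equal depth, a replicate block, removal of a trend on coding length, and leaving out gradients. The fit was tested on simulated data. Members, lists and alternatives were chosen with earlier results of these data known. Named genes were complex II, the extremes of the KO effect in the other complexes (5 lowest and 3 highest in complex I, 3 and 2 elsewhere), catalytic subunits, isoform groups, the shortest and longest members and up to 5 assembly factors. Ndufs4, Ndufs6, Ndufs7, Ndufa9, Ndufv3 and lists of members sharing a pattern were named after their values were seen. The values of 1 member are not reported here by name, though it is in every count.

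Fractions of 1 gradient carry its number in the labels and share it by design. Deviations from group means correlated at -0.159 to 0.415 (mean 0.083) over 18 pairs of fractions of the same gradient, whereas WT and KO share only a number (-0.448 to 0.221 over 9 pairs).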

Additional observations from a re-analysis of the deposited data

Results flagged for a closer look

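For 14 tests of a difference between fractions, the KO effect was called in the monosome and in a polysome fraction in opposite directions, and the difference itself was called. In the high polysome against the monosome these were Ndufc2 at -1.55, Uqcrb at -1.14, Atp5g3 at -1.09, Ndufs4 at -1.08, Atp5h at -0.81, Ndufa11 at -0.75, Ndufb9 at -0.66 and Cox6a1 at -0.60 (limma interaction, log2), each with the KO above the WT in the monosome and below it in the high polysome. In the low polysome against the monosome Ndufa13 at -1.04, Cox6a1 at -1.01, Uqcrb at -0.996, Ndufb9 at -0.71 and Ndufa11 at -0.69 had the same direction, and Atp5a1 at 1.14 the opposite one. Both comparisons use the same monosome libraries. The adjusted p of each interaction was under 0.05 by limma. Spike-in sequences, which no comparison used, had up to 169 counts in a library, the highest in WT low polysome gradient 3.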

How the results depend on the processing

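Counts of members are given here as limma calls. Removing the trend on coding length changed most: lower translation levels in the KO went from 34 to 3, lower low polysome ratios from 28 to 1 and higher ones from 6 to 2. The KO high polysome over monosome went to 29 higher and 21 lower, the monosome to 12 higher and 17 lower, the low polysome to 23 lower and the high polysome to 15 lower. Under it the sign turned for Cox6b2 (low polysome ratio, 0.025), for Cox7b (0.51) and Uqcr11 (0.20) in the WT ratio, for Atp5g3 (0.59), Atp5j (1.11), Cox5a (0.29), Cox7a2l (0.063), Cox7b (0.18), Ndufa4 (0.56), Ndufb3 (0.40), Ndufb6 (0.30), Ndufc2 (0.34), Sdhc (0.73), Uqcr11 (0.27) and Uqcrb (0.33) in the KO ratio, for Uqcrh (0.068) in the low polysome and for Cox6a1 (0.028) in the high polysome. The alternative subtracts the smooth trend over all genes, so these values are relative to it.

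A minimum size of 1 on the log2 scale left 0 higher and 10 lower translation levels, 2 and 5 low polysome ratios, 13 higher in the WT ratio, 3 higher and 4 lower monosome levels, 3 and 7 low polysome levels, and 0 and 2 high polysome levels. Leaving out 1 gradient gave 0 to 5 higher and 15 to 30 lower translation levels, 0 to 7 higher and 2 to 30 lower low polysome ratios, 13 to 20 higher in the monosome and 3 to 6 higher in the high polysome. At equal depth 1 translation level was higher. With no filter 2 low polysome ratios were higher, and with only the groups compared 2 were higher and 17 lower. DESeq2, and its size factors in limma, gave 3 higher in the high polysome. Without the 2 low polysome libraries that stood apart, an alternative chosen after seeing the data, 5 were higher and 39 lower in translation level. With the gradient as a replicate block the translation level gave 4 higher and 36 lower and the low polysome ratio 6 and 31, and no count moved by over 1.5 times. Beside the calls given above for Ndufs1, Sdhd and Cycs, it added calls for Ddx6 (translation level -0.86, KO ratio -0.54), Atp5e (low polysome ratio, -0.68), Cox7a1 (low polysome ratio, -0.64), and the WT ratios of Ndufa4l2 (-1.12) and Sdhd (1.56), and ended that of Ndufaf2 in the low polysome (-0.35). The causes were not tested. Libraries of 2543617 counts leave scarce members such as Ndufa4l2 with wide errors.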

Other observations

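Other gene groups with mitochondrial or ribosomal roles were counted for the KO effect on translation level, each by limma against the 7.09% of all genes lower and 10.7% higher. Of 77 mitochondrial ribosomal proteins, which make the few subunits encoded in mitochondria, 27 were lower (35.1%), with a median of -0.47. The respiratory chain members had 43.6% lower and a median of -0.55. In the KO high polysome 42 of the 77 were lower (54.5%), against 47.4% of the members and 21.1% of all genes. Of 18 enzymes of the citric acid cycle and pyruvate dehydrogenase, 4 were higher and 1 lower, and 13 were higher in the KO low polysome (72.2%, against 23.4% of all genes). Of 13 regulators of mitochondrial biogenesis, 4 were higher. Cytosolic ribosomal proteins had 22 of 74 higher, with a median of 0.54, and 68 were lower in the KO monosome (91.9%, against 20.1% of all genes). No test compared these lists with the respiratory chain genes.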
